A study of Mus musculus with 8 samples.

Results

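The genes Fkbp5, Tsc22d3, Sgk1, Klf9, Zbtb16, Errfi1 and Dusp1 were followed in mouse seminal vesicle after exposure to acrylamide. They were chosen by symbol as well-known targets of glucocorticoids, and all 7 were found among the 17258 genes of the table. The tissue came from male outbred Swiss mice of 8 to 12 weeks. A control group of 4 mice received phosphate buffered saline and a group of 4 mice received acrylamide at 25 mg/kg body weight, by intra-peritoneal injection on 5 consecutive days. The tissue was collected 72 h after the last injection, with the prostate dissected away and the fluid pressed out, and its poly(A) RNA was sequenced as pairs of 100 bases.

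Glucocorticoids are steroid hormones of the adrenal cortex. They cross the cell membrane and bind the glucocorticoid receptor, which is held in the cytoplasm by heat shock protein 90 and its partners, then enters the nucleus and binds DNA at an inverted repeat called the glucocorticoid response element. The androgen receptor, which maintains the seminal vesicle, recognises a very similar element, and several of the genes described here are also known as androgen-induced in male accessory glands. Dusp1, Errfi1, Sgk1 and Klf9 further respond to growth factors, serum or stress, so none of these genes is a specific gauge of the hormone.

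The roles of the 7 genes differ. Fkbp5 encodes a co-chaperone that lowers hormone binding by the receptor and so closes a feedback loop. Tsc22d3 encodes GILZ, a leucine zipper protein that dampens inflammatory signalling. Sgk1 encodes a serine/threonine kinase that regulates ion transport. Klf9 and Zbtb16 encode zinc finger transcription factors. Errfi1 encodes an adaptor that inhibits the epidermal growth factor receptor, and Dusp1 encodes a phosphatase that inactivates MAP kinases.

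The start sites of 3 of the 7 genes are shown because they hold an exact copy of the glucocorticoid or the cyclic AMP response element. The windows came from RefSeq (GRCm38.p6) and ran from 250 bases before to 50 bases after an annotated start site. Of the 7 genes, 6 had such a window, 14 windows in all, and Zbtb16 had none. The sequences give the 250 bases before the start site, 5′ to 3′ on the strand of the gene, with that element in capitals and any other match in lower case. Sgk1 is shown at chr10:21993640-21993889 on the + strand, Errfi1 at chr4:150854820-150855069 on the + strand, and Dusp1 at chr17:26508473-26508722 on the - strand.
Sgk1: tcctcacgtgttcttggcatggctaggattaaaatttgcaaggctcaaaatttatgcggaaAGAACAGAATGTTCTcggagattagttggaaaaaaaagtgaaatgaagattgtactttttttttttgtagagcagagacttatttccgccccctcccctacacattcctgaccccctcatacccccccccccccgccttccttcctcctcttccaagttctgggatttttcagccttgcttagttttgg
Errfi1: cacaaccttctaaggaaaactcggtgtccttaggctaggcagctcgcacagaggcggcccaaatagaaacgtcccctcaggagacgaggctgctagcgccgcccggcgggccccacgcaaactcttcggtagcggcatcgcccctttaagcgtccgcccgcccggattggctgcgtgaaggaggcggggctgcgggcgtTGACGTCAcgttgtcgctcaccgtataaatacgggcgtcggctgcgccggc
Dusp1: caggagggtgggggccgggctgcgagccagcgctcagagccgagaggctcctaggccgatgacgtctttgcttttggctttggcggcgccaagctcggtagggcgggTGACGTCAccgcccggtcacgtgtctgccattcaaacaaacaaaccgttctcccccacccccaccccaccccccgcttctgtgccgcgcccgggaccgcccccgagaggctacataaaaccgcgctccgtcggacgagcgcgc
The perfect glucocorticoid response element, AGAACA and TGTTCT with 3 free bases between them, began 189 bases before 1 of the 6 annotated start sites of Sgk1. It was the single exact copy among 16593 windows of 13163 genes in the table. With 1 mismatch allowed in its 12 fixed letters, 16 windows held it, or 0.0964%. The cyclic AMP response element TGACGTCA began 51 bases before 1 of the 2 start sites of Errfi1 and 143 bases before that of Dusp1, against 437 of the 16593 windows, or 2.63%. The E-box CACGTG lay in the windows of Fkbp5, Sgk1 and Dusp1, against 9.02% of all windows. The AP-1 element TGACTCA lay in none of the 14 windows, against 4.31% of all windows. All 4 elements were searched on both strands and none contains another. A match describes the letters of the window only, and many elements used by the receptor lie outside such windows.

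The values available for these genes were 1 normalised expression value per group, in reads scaled by size factors, with no correction for length. It is a fitted value and not a plain mean over the libraries of the group, so Fosl1, without a read in any control library, still had a control value of 0.176. No spread between the 4 mice of a group can be read from them, so no SD or test accompanies a group value. Each ratio is given with an exact 95% interval of counting error alone, which leaves out differences between mice. Summed over all genes, the control value was 30956651 and the acrylamide value 27433231, which is 11.4% lower. The size factors of the 8 libraries ran from 0.886 to 1.02 in the control group and from 1.03 to 1.11 in the acrylamide group. The sum of luminal epithelial markers, led by Svs2 and Svs5, was 0.826 times the control sum, and all 10 were above a mean of 100. The sums of 6 smooth muscle markers, 6 fibroblast markers, 5 endothelial markers and 8 leukocyte markers were 1.22, 1.17, 1.21 and 1.33 times the control sums. Among the fibroblast markers 4 of 6 had a positive log2 ratio, and the lowest was -0.15. Basal epithelial, nerve and Schwann, and adipocyte markers summed to 1.06, 0.990 and 0.672 times control. The adipocyte sums were only 11.3 in control and 7.57 in acrylamide tissue. The 5 prostate markers summed to 0.809 times control, with Msmb, the least abundant of them, ranging from 0 to 90.0 normalised reads over the control libraries. In bulk tissue, fewer cells of a type and less RNA per cell cannot be told apart.

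Sgk1 was by far the most abundant of the 7 genes in control tissue. Its normalised expression of 14278 ranked 44 of 17258 genes and made up 80.9% of the summed values of the 7 genes. Fkbp5 followed at 1460, rank 954. Klf9 at 564.3, Tsc22d3 at 449.9, Zbtb16 at 404.4 and Errfi1 at 357.2 ranked between 2944 and 4582. Dusp1 was lowest at 130.3, rank 8125, with 52.9% of genes below it.

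Per kilobase of transcript, taking the median length of the protein-coding transcripts, the order in control tissue was Sgk1 at 5814, Fkbp5 at 418.9, Tsc22d3 at 289.9, Klf9 at 125.8, Errfi1 at 117.5, Zbtb16 at 106.2 and Dusp1 at 72.1 normalised reads per kb. The span from Sgk1 to Dusp1 was 80.7-fold. Klf9, Errfi1 and Zbtb16 were close neighbours in that order, and without values per mouse it cannot be said whether they differ beyond the spread between mice. Division by the longest transcript left the place of every gene unchanged. In the acrylamide group the values per kb of Errfi1 at 174.8 and Dusp1 at 118.2 stood above that of Zbtb16 at 107.2.

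**Figure D1:**
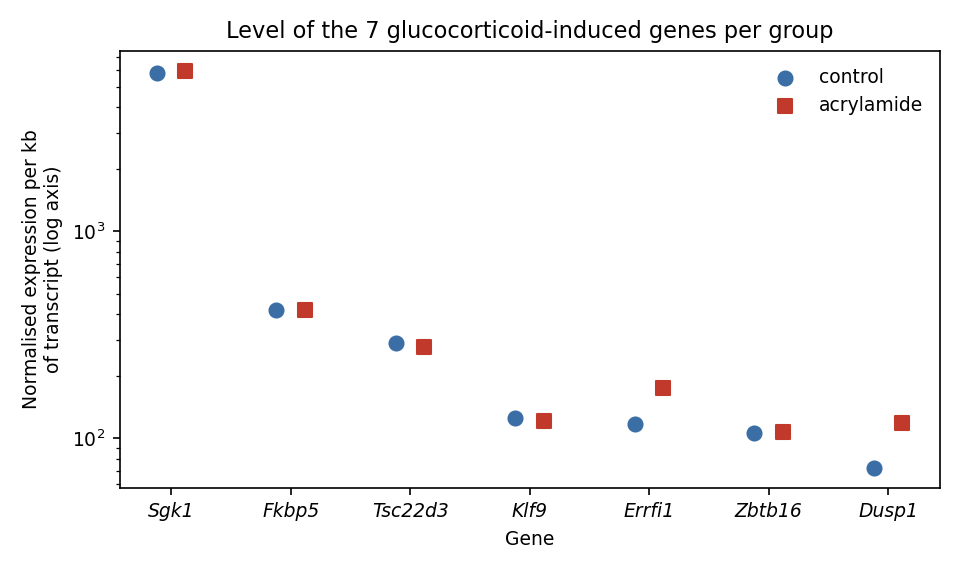
Normalised expression per kilobase of transcript (y axis, log scale) of the 7 genes (x axis), with 1 point for the control group and 1 square for the acrylamide group, each the single value of a group of 4 mice, so no error bar can be drawn. Sgk1 sits near 5814 in control tissue and Dusp1 at 72.1, and a visible gap between the groups appears at Errfi1 and Dusp1.

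Acrylamide tissue held nearly the same level as control tissue for 5 of the 7 genes, among them Fkbp5, Tsc22d3 and Zbtb16, and a higher group value for Errfi1 and Dusp1. A gene was counted as higher at a ratio of at least 1.5 and as lower at 0.67 or less, the fold limits used by the study. By this count 1 of the 7 genes (Dusp1) was higher and 0 were lower. Over all 15345 genes with a mean of both groups of at least 1, 8.26% were higher and 3.56% lower. Since all 7 genes had a mean above 100, the closer background is the 8932 genes with a mean of at least 100, of which 1.03% were higher and 0.369% lower. Genes with a mean from 1 to below 100 were thus past the limits more often than 8.26% and 3.56%. The median log2 ratio of the 7 genes was 0.01, beside -0.02 over those 8932 genes, whose middle 50% lay between -0.12 and 0.08.

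Fkbp5 had a normalised expression of 1460 in control and 1455 in acrylamide tissue, a log2 ratio of -0.01 with a counting interval of -0.06 to 0.05 (about 5541 and 6191 reads). Its ratio was closer to 1 than that of 97.3% of the 8932 genes. Tsc22d3 stood at 449.9 and 429.8, a log2 ratio of -0.07 (-0.16 to 0.03). These are the feedback co-chaperone and the anti-inflammatory zipper protein, and for both the interval held 0.

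Sgk1 stood at 14278 in control and 14699 in acrylamide tissue, 2.94% higher, a log2 ratio of 0.04 (0.03 to 0.06). Its interval lay above 0 because it rested on about 54180 and 62537 reads, and 78.0% of the 8932 genes had a larger ratio in either direction. Klf9 stood at 564.3 and 547.9, a log2 ratio of -0.04 (-0.13 to 0.04). Zbtb16 stood at 404.4 and 408.2, a log2 ratio of 0.01 (-0.09 to 0.11). The intervals of both transcription factors held 0, so at this depth no difference could be detected in either.

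Errfi1, the inhibitor of the epidermal growth factor receptor, stood at 357.2 in control and 531.3 in acrylamide tissue. The ratio was 1.49, just short of the limit of 1.5, and the log2 ratio 0.57 (0.48 to 0.67). Of the 8932 genes, 1.48% had a larger ratio in either direction. Scaling both groups to their total, to the total without the Svs genes, to the upper quartile, or centring on the median of genes with a mean of at least 100 placed it past 1.5.

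Dusp1, the MAP kinase phosphatase, stood at 130.3 in control and 213.8 in acrylamide tissue. The ratio was 1.64 and the log2 ratio 0.71 (0.55 to 0.87), from about 495 and 910 reads, and 0.862% of the 8932 genes had a larger ratio in either direction. In the annotation, 11 of the 3311 exon bases of Dusp1 are shared with Ergic1 on the opposite strand, and Ergic1 had a log2 ratio of -0.12. No exon of the other 6 genes overlapped another gene.

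**Figure D2:**
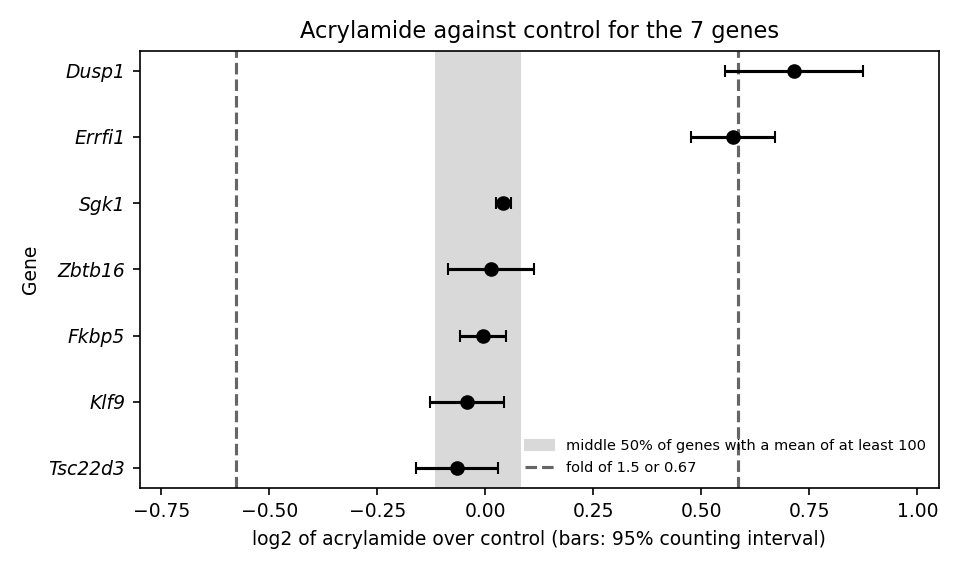
Log2 ratio of acrylamide over control (x axis) for each of the 7 genes (y axis), with points for the ratio of the group values and bars for the exact 95% interval of counting error. Grey marks the middle 50% of the 8932 genes with a mean of at least 100 and dashed lines mark folds of 1.5 and 0.67. Dusp1 at 0.71 is beyond the upper line, Errfi1 at 0.57 is just short of it, and the other 5 genes lie inside the grey band.

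Both genes with the higher ratios are also immediate early genes, which growth factors, stress or tissue handling switch on within minutes. Of 31 other immediate early genes with a mean of at least 1, 10 were higher and 0 lower, and the median log2 ratio was 0.30. Over all genes with such a mean, 8.26% were higher and 3.56% lower, and more below a mean of 100. At a mean of at least 100 the shares were 1.03% and 0.369%. The zinc finger factors of the EGR family led the list. Egr1 stood at 31.6 and 310.6, a ratio of 9.84, Egr2 at 2.64 and 23.4, and Egr3 at 2.33 and 36.1. Arc, a cytoskeletal protein first known from neurons, stood at 6.06 and 35.1. Of the 17 genes of this list with a mean of at least 100, 2 were higher, Egr1 and Ctgf, a matricellular growth factor gene at 149.4 and 279.7 (ratio 1.87). Jun, a subunit of AP-1, had a ratio of 1.49 and Atf3, a stress-induced factor, one of 1.33, while the 2 most abundant genes, Jund and Nr4a3, had log2 ratios of -0.17 and 0.04.

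For genes with few reads, the whole reads of each of the 8 libraries could be recovered from the digits of the group values. The libraries carry no mouse number in this form and were numbered by size factor within each group. Egr2 had 2, 4, 1 and 3 reads in the control libraries and 6, 80, 3 and 12 in the acrylamide libraries. Egr3 had 5, 0, 3 and 1 reads in control and 8, 143, 1 and 5 in acrylamide. Arc had 5, 8, 5 and 5 reads in control and 5, 136, 7 and 4 in acrylamide. The high values of all 3 genes were those of acrylamide library 2. In the other 3 acrylamide libraries their reads ran from 1 to 12, against 0 to 8 in the control libraries. Egr1 had too many reads to be recovered, so how its reads lay over the libraries was not seen. The study reported that Egr1 was also higher after acrylamide by quantitative PCR. Fosb, a subunit of the AP-1 factor, had 3, 4, 4 and 4 reads in control and 5, 34, 6 and 6 in acrylamide libraries (exact permutation p = 0.0571). After scaling, acrylamide library 1 at 4.49 normalised reads lay just below the highest control library at 4.51.

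Summed over the 8 immediate early genes with reads per library, the normalised reads ran from 53.0 to 63.2 in the control libraries, and were 105.1, 400.8, 61.3 and 80.9 in acrylamide libraries 1 to 4. Of these 8 genes, 5 had a mean ratio of at least 1.5, and 3 did so without acrylamide library 2. Egr2, Egr3 and Arc gave exact two-sided permutation p of 0.0857, 0.229 and 0.80 on log2 of normalised reads plus 1, with 4 libraries against 4. The smallest p this design can give is 0.0286. The reads of Dusp1 and Errfi1 were too many to be recovered, so whether their higher group values come from acrylamide library 2 or from all 4 libraries was not tested.

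The relatives of both genes were followed for the same reason. Of 11 other dual-specificity phosphatases, 2 were higher and 0 lower, with Dusp6 at 88.1 and 167.8 (ratio 1.91) and Dusp5 at 45.8 and 72.1 (ratio 1.57). The most abundant, Dusp3 and Dusp16, had log2 ratios of 0.23 and -0.11. Of 10 other negative regulators of the epidermal growth factor receptor, 2 were higher and 0 lower. They were Spry4, a feedback inhibitor of receptor tyrosine kinases, and Cbl, a ubiquitin ligase that sends the receptor to degradation. Beside these 2 lists, 8.26% of all genes with a mean of at least 1 were higher and 3.56% lower, and more below a mean of 100. At a mean of at least 100, 1 of 6 phosphatases and 0 of 4 regulators were higher, against 1.03% of all genes. Spry4 had 23, 18, 11 and 18 reads in control and 28, 61, 21 and 31 in acrylamide libraries (exact permutation p = 0.0571), again highest in library 2. Cbl had 12, 15, 20 and 12 reads in control and 50, 33, 30 and 24 in acrylamide libraries, so that its groups did not overlap (exact permutation p = 0.0286).

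**Figure D3:**
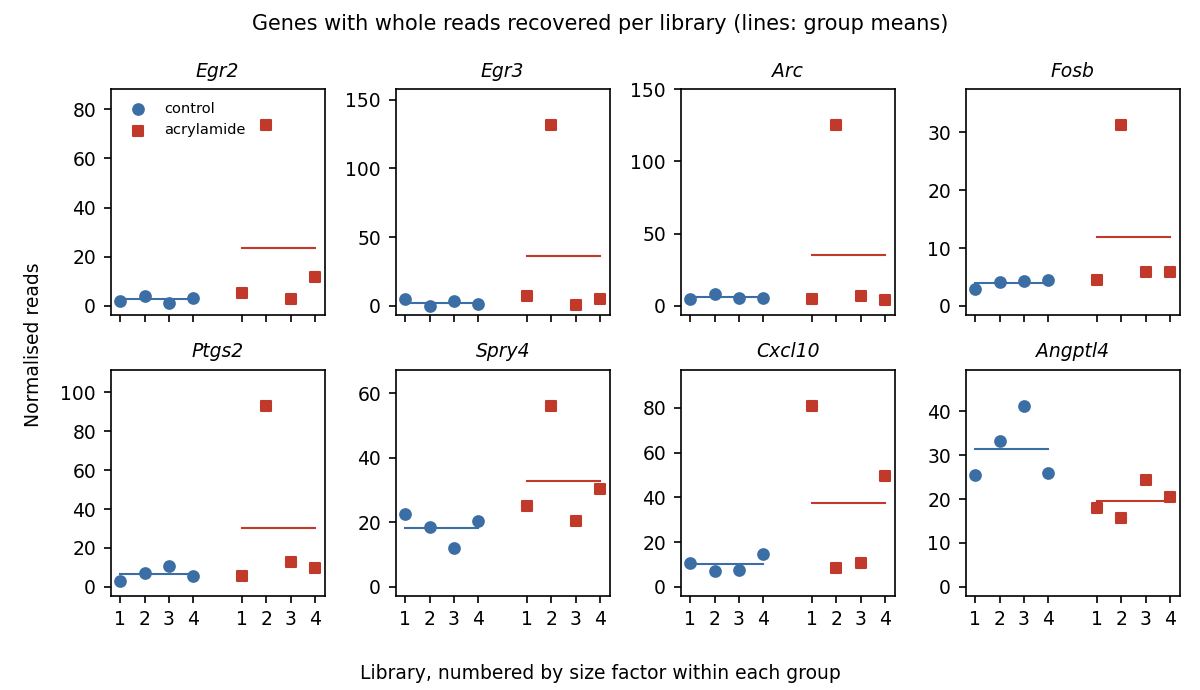
Normalised reads (y axis, linear, a scale for each panel) in the 4 control and 4 acrylamide libraries (x axis), with points for libraries and lines for group means. For Egr2, Egr3, Arc, Fosb, Ptgs2 and Spry4 acrylamide library 2 is the highest point, with 131.5 normalised reads of Egr3 in it, whereas Cxcl10 is highest in libraries 1 and 4 and the normalised reads of Angptl4 are lower in all 4 acrylamide libraries than in the controls.

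The glucocorticoid receptor and its partners had similar values in both groups. Of 19 genes for the receptor, its chaperones, its cofactors and the enzymes that convert corticosteroids, 0 were higher and 0 lower. Their median log2 ratio was 0.05. Of the 19, 16 had a mean of at least 100, where 1.03% of all genes were higher and 0.369% lower. Over all genes with a mean of at least 1, 8.26% were higher and 3.56% lower. Nr3c1, the receptor itself, stood at 335.2 and 347.5 (log2 ratio 0.05). Hsp90ab1, the chaperone that holds it, had a log2 ratio of -0.10, and Fkbp4, the co-chaperone that opposes Fkbp5, had one of -0.18. Nr3c2, the mineralocorticoid receptor, had 22, 16, 12 and 8 reads in control and 22, 27, 15 and 18 in acrylamide libraries, which overlapped (exact permutation p = 0.257). Hsd11b1, which regenerates active glucocorticoid, had 16, 24, 20 and 32 reads in control and 22, 25, 23 and 29 in acrylamide libraries (exact permutation p = 0.971).

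Among 37 other genes known to be glucocorticoid-induced, 5 were higher and 3 lower, and the median log2 ratio was 0.10. Over all genes with a mean of at least 1, 8.26% were higher and 3.56% lower, and more below a mean of 100. Glul, glutamine synthetase, was the most abundant of the 37 genes, with a log2 ratio of 0.25, followed by Mt1, a metallothionein, at -0.27. Cdkn1a, the p21 inhibitor of the cell cycle that p53 also induces, stood at 51.0 and 86.6 (ratio 1.70). Il1r2, a decoy receptor for interleukin-1, stood at 39.5 and 60.7. Bcl6, a transcriptional repressor, stood at 247.5 and 144.7 (ratio 0.585). Of the 22 genes of this list with a mean of at least 100, 0 were higher and 1 (Bcl6) was lower. Over all genes with such a mean, 1.03% were higher and 0.369% lower.

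Angptl4, an inhibitor of lipoprotein lipase, had 26, 32, 38 and 23 reads in the control libraries and 20, 17, 25 and 21 in the acrylamide libraries, which overlap before scaling. In normalised reads the control libraries ran from 25.5 to 41.2 and the acrylamide libraries from 15.6 to 24.3, so after scaling the groups did not overlap, by a narrow gap (exact permutation p = 0.0286). Hif3a, a hypoxia-inducible factor subunit, had 22, 13, 15 and 8 reads in control and 16, 20, 36 and 26 in acrylamide libraries, and these overlapped (exact permutation p = 0.171). Over the 8 genes of the list with reads per library, 3 had a mean ratio of at least 1.5, and without acrylamide library 3 this was 1.

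Of the 55 list genes with reads per library, 3 reached an exact permutation p of 0.0286 without adjustment for the number of tests, or 5.45% of those tested. They were Cbl with higher normalised reads and Angptl4 and Fkbp1b, a calcium channel partner of the Fkbp family, with lower normalised reads in acrylamide libraries. Reads were recovered for list genes only, so no share over all genes can be set beside these 3. Fkbp1b had 6, 6, 8 and 4 reads in control and 5, 1, 4 and 3 in acrylamide libraries. Its reads overlapped, and the groups separated only after scaling, at 4.51 against 4.49 normalised reads. Cbl and Angptl4 were reached only because the upper limit on reads for the recovery was raised from a sum of 160 to 220 after first results had been seen. At the first limit 1 gene of 44, Fkbp1b, reached that p.

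Of 9 inflammatory genes that glucocorticoids repress, with a mean of at least 1, 5 were higher and 1 lower, and the median log2 ratio was 0.65. The lower gene was the neutrophil chemokine gene Cxcl1, at 2.66 and 1.64. None of the 9 had a mean of 100 or more. Over all genes with a mean of at least 1, 8.26% were higher and 3.56% lower, and more below a mean of 100. Ptgs2, the inducible cyclooxygenase, had 3, 7, 10 and 5 reads in control and 6, 101, 13 and 10 in acrylamide libraries, where library 2 again stood apart (exact permutation p = 0.229). Cxcl10, a chemokine for T cells, had 11, 7, 7 and 13 reads in control and 90, 9, 11 and 51 in acrylamide libraries, with libraries 1 and 4 highest (exact permutation p = 0.229). Ccl2, a chemokine for monocytes, had 7, 5, 5 and 10 reads in control and 25, 10, 14 and 21 in acrylamide libraries (exact permutation p = 0.0571).

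Icam1, a leukocyte adhesion molecule, stood at 71.2 and 111.7 (ratio 1.57), and Vcam1 had a log2 ratio of 0.22. Beside these values, the 8 leukocyte markers summed to 327.4 in control and 435.1 in acrylamide tissue, and Ptprc, the pan-leukocyte antigen, stood at 81.6 and 125.2. The part of leukocyte number in the inflammatory values was not tested.

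**Figure D4:**
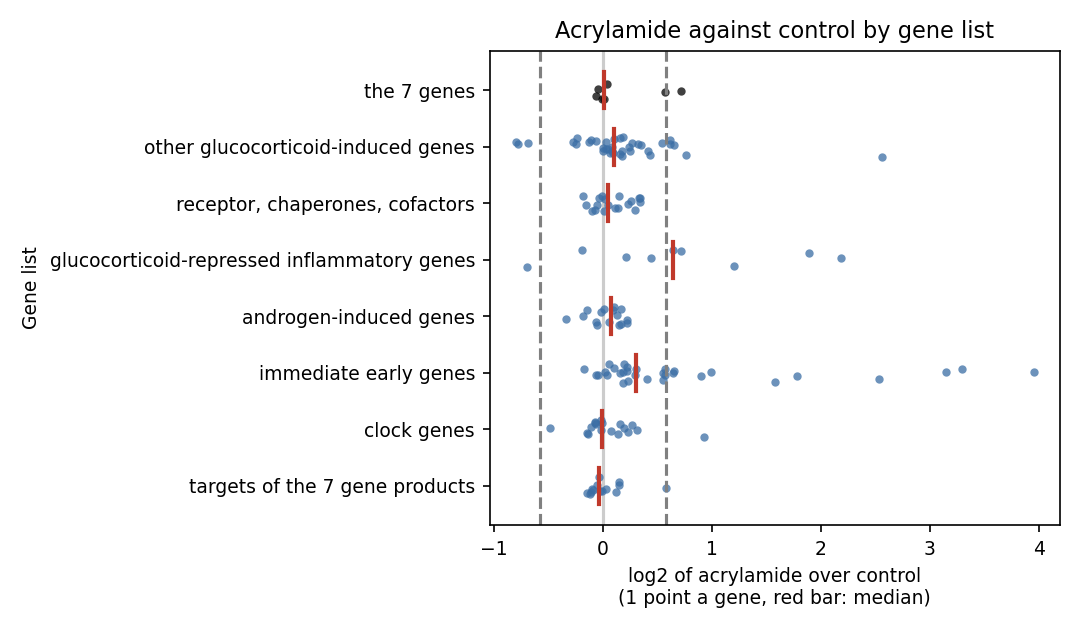
Log2 ratio of acrylamide over control (x axis) for the 7 genes and for 7 further gene lists (y axis), with 1 point for each gene with a mean of at least 1, red bars for list medians and dashed lines at folds of 1.5 and 0.67. The median is 0.01 for the 7 genes, 0.30 for immediate early genes and 0.65 for glucocorticoid-repressed inflammatory genes, and the remaining lists have medians from -0.03 to 0.10.

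Androgen-induced genes were included because the androgen receptor shares the element. Of 16, 0 were higher and 0 lower, with a median log2 ratio of 0.07, and the most abundant, Tpd52 and the sorbitol dehydrogenase gene Sord, had log2 ratios of -0.05 and -0.34. Clock genes were included because Klf9 and Per1 link glucocorticoids to the daily rhythm. Of 18, 1 was higher and 0 lower. It was Bhlhe40, a repressor that many stimuli induce, at 54.3 and 103.4 (ratio 1.90). The most abundant clock genes, Nr1d2 and Tef, both had a log2 ratio of -0.14. Beside both lists, 8.26% of all genes with a mean of at least 1 were higher and 3.56% lower. All 16 androgen-induced genes and 12 of the 18 clock genes had a mean of at least 100. Over all genes with such a mean, 1.03% were higher and 0.369% lower.

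Of 14 genes whose products the 7 proteins act on, 0 were higher and 0 lower by the fitted group values. Over all genes with a mean of at least 1, 8.26% were higher and 3.56% lower. Of the 14 genes, 10 had a mean of at least 100, where 1.03% of all genes were higher and 0.369% lower. The median log2 ratio of the 14 genes was -0.03. The largest ratio was that of Scnn1g, a subunit of the epithelial sodium channel, at 14.8 and 22.2, with a log2 ratio of 0.58 (0.11 to 1.10) that lay just short of the limit. Its libraries overlapped (exact permutation p = 0.314), and the ratio of their mean normalised reads was 1.503, just past the limit. Mapk3, a MAP kinase that dual-specificity phosphatases inactivate, had a log2 ratio of -0.09. Egfr, the receptor bound by the Errfi1 product, stood at 65.0 and 70.8, and Nedd4l, the ubiquitin ligase that Sgk1 phosphorylates, had a log2 ratio of -0.12.

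The remaining relatives of the 7 genes held few genes past the fold. The 3 other genes of the Tsc22d family had log2 ratios of -0.17 (Tsc22d1), 0.12 (Tsc22d2) and -0.03 (Tsc22d4). Sgk3 stood at 358.7 and 428.6 (log2 ratio 0.26), and Sgk2 gave a total of 2 reads over the 4 control libraries and a total of 1 read over the 4 acrylamide libraries. Of 14 other Fkbp genes 0 were higher and 1 lower. Of 14 other Klf genes 1 was higher and 1 lower, and of 21 other Zbtb genes 1 was higher and 0 lower. Of these, 10 Fkbp, 8 Klf and 15 Zbtb genes had a mean of at least 100. Over all genes with such a mean, 1.03% were higher and 0.369% lower. Over all genes with a mean of at least 1, 8.26% were higher and 3.56% lower. In these 3 families the most abundant genes, Fkbp2, Klf2, Klf6, Zbtb4 and Zbtb7b, had log2 ratios between -0.08 and 0.20, and Klf8, a repressor, stood at 12.1 and 19.8 (ratio 1.64). The lower Fkbp gene was Fkbp1b, at a log2 ratio of -1.05, and the lower Klf gene was Klf1, an erythroid factor, at -0.78. The higher Zbtb gene was Zbtb7c, with 8, 4, 4 and 5 reads in control and 19, 8, 13 and 12 in acrylamide libraries (ratio 2.21, exact permutation p = 0.0571).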

How the data were processed

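Poly(A) RNA of 4 control and 4 acrylamide samples was sequenced on the DNBSeq platform. Per the study's methods, read filtering used SOAPnuke, alignment to mm10 used Hisat2, further genes were predicted with StringTie and Cuffcompare, and RSEM gave the counts. The deposited signal columns used here hold 1 value of each gene for each group, in reads normalised by the authors' DESeq2 size factors. The authors' fold changes, log2 fold changes, p-values and adjusted p-values in the same table were not used, so no test across all genes was made. Strandedness of the counting is not given in the sources used here. Depth per library is not held by group values, so precision rests on intervals that cover counting error only.

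Ratios were computed without a pseudocount. The mean of both group values had to be at least 1. Exact 95% Clopper-Pearson intervals used the reads implied by each group value and the size factors. Whole reads per library were searched for list genes from the digits of both group values, and 55 of 55 genes tried had 1 solution. The search was tested on simulated data, whose group values were plain means of the libraries. The test therefore did not cover the difference between such means and the fitted values used here. The limit on the sum of normalised reads was first 160, and was raised to 220 after first results were seen, so that Arc, Cxcl10, Angptl4 and Hsd11b1 would be included. A check of the fold of each solution was restricted from group values of at least 1.5 to at least 3 after Egr3 had given no solution. The test between libraries was an exact permutation test, two-sided, over all 70 divisions of the libraries, on log2 of normalised reads plus 1, without adjustment. Each library is 1 mouse.

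Positions and windows came from RefSeq (GRCm38.p6) and lengths from GENCODE vM21. A planned search of each gene with its flanks was not run, because only start site windows were at hand. Python 3.11.15, numpy 2.4.6, pandas 2.3.3, scipy 1.17.1 and matplotlib 3.10.9 were used. The 7 genes and all lists were chosen with earlier results of these data known. Named are the 7 genes, of each list up to 4 genes with the largest ratio past the fold among those with a mean of at least 10 and the 2 of highest mean, and all relatives of Tsc22d3 and Sgk1. Nr3c1, Nr3c2, Hsd11b1, Hif3a, Fosb, Fkbp1b, Egfr, Nedd4l, Scnn1g, Ctgf, Jun, Atf3, Cxcl1, Klf1, Zbtb7c, Fosl1, Ergic1 and Msmb were named outside this rule after their values were seen. Single values of some list genes are left out of the text.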

Additional observations from a re-analysis of the deposited data

Results flagged for a closer look

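Over 54 of the genes with reads per library, 15 of 108 groups of 4 libraries held 1 library far from the other 3. For normally distributed values the limit flags about 1 group in 20 by chance, a rate that does not carry over to genes with a few reads, and in 6 of the 15 groups only 1 library held any read. In the acrylamide group the library apart was library 2 for Arc at 125.0 normalised reads, Egr2 at 73.5, Egr3 at 131.5, Fosb at 31.3, Fosl1 at 6.43 and Ptgs2 at 92.8. In the control group 1 library was highest for Klf8 at 21.8, Zbtb46 at 15.8 and Msmb at 90.0 normalised reads. The other flags rest on a few reads: Il6 at 1.96, Lep at 4.51 and Pck1 at 1.13 in 1 control library each, and Lep at 0.898, Sele at 1.80 and Sgk2 at 0.973 in 1 acrylamide library each. None of the 7 genes could be looked at in this way.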

How the results depend on the processing

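Of the 7 genes, Dusp1 was higher under every scaling, pseudocount and length correction tried. Errfi1 joined it, making 2, when scaled to the total of all genes, to the total without the Svs genes, to the upper quartile or to the median of abundant genes. With limits of a 25% change and of a fold of 2, chosen after seeing the data for these 7 genes, 2 and 0 were higher. Scaling to the total raised the median of the 7 genes to 0.19, that of genes with a mean of at least 100 to 0.15, and the count of higher genes to 1977. The counts of all higher and lower genes were 558 and 139 with a pseudocount of 5, 540 and 125 at a minimum mean of 10, 65 and 26 at 150, 2495 and 1148 at a 25% change, and 566 and 251 at 2, and without a minimum 1230 were lower. Of other glucocorticoid-induced genes, 8 were higher when scaled to the total, 3 with a pseudocount of 1 or a minimum mean of 10, 10 at a 25% change and 1 at 2. With a pseudocount of 5, 1 was higher and 1 lower, and at a minimum mean of 150, 0 and 1. At a fold of 2, 0 were lower. Of the repressed inflammatory genes, 0 were lower when scaled to the total, with either pseudocount, at either minimum mean and at a fold of 2, and 2 were lower without a minimum. At a minimum mean of 150, 0 were higher, and at a fold of 2, 3. Of immediate early genes, 2 were higher at 150 and 6 at a fold of 2.

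Without 1 library at a time, genes at an exact permutation p of 0.05 or less numbered 0 to 4 (0 without control library 1, 1 without control library 4). At the first limit of 160, 1 of the 3 remained, and with the first fold check all 3 did. Angptl4, Fkbp1b and Cbl each lost that p without several libraries, where only 7 libraries remain. Among genes with reads per library, the higher immediate early genes numbered 3 to 5, the inflammatory genes 3 to 5 and the other glucocorticoid-induced genes 1 to 4 without 1 acrylamide library. No paired analysis was possible because the columns hold groups and carry no replicate numbers. The cause of these shifts was not tested.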
